A study of Mus musculus with 18 samples.

Results

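The 9 genes Plin2, Plin3, Plin4, Plin5, Cidec, Cideb, Pnpla2, Abhd5 and G0s2, of the lipid droplet surface and of its lipolytic machinery were followed in nuclear RNA from the livers of fed and fasted mice. They were chosen with earlier results of these data known, and were located by gene symbol in the deposited count table. All 9 were found there among 20105 genes. The livers came from 6 female HEP-INTACT mice, whose tagged hepatocyte nuclei were separated from the other liver nuclei by immunoprecipitation (IP). 3 mice were fed ad libitum and 3 were fasted for 16 h from zeitgeber time 12 (ZT12), the onset of the dark, active phase, and fed controls were killed at the same time. Each mouse gave 3 libraries, namely IP of fresh liver, IP of frozen liver and the supernatant left after the IP of fresh liver, so that 6 groups of 3 libraries were compared. Animals are read from the titles, in which 6 numbers recur across the preparations. In the fasting comparisons p-values measure the spread between these mice. Comparisons between preparations, of levels or of fasting responses, took libraries of the same mouse as independent unless the mouse was a block. With that block, p-values rest on the variation left after differences between mice are removed, which edgeR estimates in part from other genes. All groups carried the HEP-INTACT alleles, and the age, the background strain and the driver of the tag are not given in the sources used here.

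Hepatocytes store triglyceride in lipid droplets, whose surface is covered by perilipins and by CIDE proteins. Perilipins limit the access of lipases to the stored lipid, and CIDE proteins promote lipid transfer and droplet growth or, in the liver, the loading of lipoproteins. Adipose triglyceride lipase, the product of Pnpla2, starts the breakdown of triglyceride. Its coactivator is encoded by Abhd5 and its inhibitor by G0s2.

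The libraries held between 13828945 and 54434263 counts, and values are CPM, the counts of a gene relative to its library's total after scaling by TMM, a correction for library composition. Albumin (Alb), a hepatocyte product, averaged 2258 ± 78.2 CPM in fed fresh IP and 243 ± 128 CPM in fed supernatant (SD, n = 3), and the macrophage receptor Adgre1 was at 1.47 ± 0.634 and 1285 ± 295 CPM. The 9 adipocyte markers, among them Plin1, summed to 5.88 to 10.5 CPM in the 12 IP libraries, and Adipoq, the defining gene of that list, had 0 to 3 counts in each of the 18 libraries. In IP the 10 hepatocyte markers summed to 13624 to 20637 CPM in fresh libraries of fed mice and 20253 to 28060 in those of fasted mice. The sum of the 6 cholangiocyte markers was lower in fasted IP, at 560 to 581 CPM in fed and 197 to 248 CPM in fasted fresh IP and at 576 to 663 and 221 to 290 CPM in frozen IP. In supernatant that list was at 12.9 to 15.3 CPM in fed and 6.47 to 20.1 CPM in fasted mice. Its sum was thus far higher in the tagged fraction, unlike those of the stellate cell and endothelial lists, which were higher in supernatant. The genes of a list were not examined singly, so a few of them could carry its sum. The 9 stellate cell markers were at 65.1 to 123 and 46.3 to 60.3 CPM in fresh IP and 71.5 to 115 and 47.5 to 59.9 CPM in frozen IP, and the 9 endothelial markers at 63.0 to 126 and 33.0 to 76.2 CPM and, in frozen IP, 183 to 262 and 107 to 163 CPM. The part of these markers in the fasting results was not tested. In bulk nuclei, fewer cells of a type and less RNA per nucleus cannot be told apart.

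The members lie on 7 chromosomes of mm10, and the counted feature was the whole span of each gene, introns included. Plin4 (chromosome 17, 56100591 to 56109802) and Plin5 (chromosome 17, 56111601 to 56117548) are neighbours on the minus strand, 1798 bases apart, and Plin3 (56278962 to 56290511) is on the same strand of that chromosome. Plin2 spans 86656565 to 86670059 on chromosome 4, Cidec 113424634 to 113435760 on chromosome 6, Cideb 55754055 to 55758424 on chromosome 14 and G0s2 193272160 to 193273188 on chromosome 1, all on the minus strand. Pnpla2 (chromosome 7, 141455188 to 141460743) and Abhd5 (chromosome 9, 122351616 to 122381523) are on the plus strand. Exons made up 82.4% of the span of the matching GENCODE transcript for G0s2, 62.5% for Plin4, 36.8% for Pnpla2, 33.1% for Plin5, 28% for Plin3, 27.5% for Cideb, 15.5% for Cidec, 14.0% for Plin2 and 10.6% for Abhd5. The counted spans of all members but G0s2 and Plin4 are therefore mostly intronic.

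Promoters of the 4 genes whose rise with fasting the results below turn on are shown as RefSeq gives them (GRCm38.p6, which has mm10 coordinates), each 5′ to 3′ on the minus strand from 250 bases before the transcription start to 10 bases after it. Capitals mark matches to the motifs searched. The Plin2 promoter lies at chr4:86670050-86670309, that of Plin4 at chr17:56109773-56110032, the upstream one of 2 for Plin5 at chr17:56117539-56117798 and the upstream one of 2 for Cidec at chr6:113435751-113436010.
Plin2: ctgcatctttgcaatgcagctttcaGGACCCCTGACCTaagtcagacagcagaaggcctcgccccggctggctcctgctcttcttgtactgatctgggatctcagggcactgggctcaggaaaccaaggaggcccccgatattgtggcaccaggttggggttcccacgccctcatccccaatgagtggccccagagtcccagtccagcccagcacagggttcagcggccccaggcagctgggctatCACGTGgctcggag
Plin4: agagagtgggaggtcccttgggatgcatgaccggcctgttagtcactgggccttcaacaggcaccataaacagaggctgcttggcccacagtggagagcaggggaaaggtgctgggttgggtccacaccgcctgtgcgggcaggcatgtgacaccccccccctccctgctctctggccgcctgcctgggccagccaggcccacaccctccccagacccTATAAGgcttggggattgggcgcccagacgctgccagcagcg
Plin5: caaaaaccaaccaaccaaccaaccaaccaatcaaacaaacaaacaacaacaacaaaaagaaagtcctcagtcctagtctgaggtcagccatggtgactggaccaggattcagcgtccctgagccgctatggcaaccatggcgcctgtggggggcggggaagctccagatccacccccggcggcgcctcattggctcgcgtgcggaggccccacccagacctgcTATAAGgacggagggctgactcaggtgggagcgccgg
Cidec: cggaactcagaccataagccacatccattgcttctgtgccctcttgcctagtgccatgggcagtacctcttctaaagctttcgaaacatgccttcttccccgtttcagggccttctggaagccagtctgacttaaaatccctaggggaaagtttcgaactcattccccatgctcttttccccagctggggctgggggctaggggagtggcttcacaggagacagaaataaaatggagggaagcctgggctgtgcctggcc

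Motifs were searched on both strands in windows of 300 bases, 250 before and 50 after each start, in the 11 promoters of the 9 genes and in all 32851 promoters of that length. The direct repeat of AGGTCA with any 1 base between its copies, the form bound by PPAR and RXR receptors, had no exact match in the 11 promoters and one in 0.0396% of all promoters. With up to 2 mismatches it matched 1 of the 11, that of Plin2 at position -225 on the minus strand, and 3.86% of all promoters. CACGTG, the E-box, matched in Plin2 at position -4 and in 7.15% of all promoters. TGACGTCA, the cAMP response element, matched none of the 11 and 1.79% of all. TATAAG, a core promoter motif searched after the sequences had been seen, matched Plin4 at -32 and the upstream Plin5 promoter at -27, and 7.43% of all promoters. None of these matches overlapped another, and a match is a description of the letters and not of a bound site.

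Fasting raised 6 of the 9 genes and lowered 1 in hepatocyte nuclei of fresh liver. Cidec, Plin4, Plin5, G0s2, Plin2 and Pnpla2 were higher in fasted mice, Plin3 was lower, and Cideb and Abhd5 did not pass the test (edgeR quasi-likelihood test, Benjamini-Hochberg adjusted p under 0.05 over all genes tested). The background was 25.1% of 12548 genes called, 12.4% higher and 12.6% lower. The median log2 change (fasted minus fed) was 1.64 over the 9 genes and 0.01 over all genes tested. Because the 9 genes were chosen with earlier results of these data known, their counts beside the background are a description only. In frozen IP the same test called 6 members higher and 1 lower against 22.6% of 12926 genes (11.0% higher, 11.6% lower), with a median of 1.63 against 0.01. In supernatant 5 of 8 members tested were higher and 0 lower against 6.22% of 13921 genes (3.38% higher, 2.84% lower), with a median of 0.92 against 0. The 3 preparations came from the same 6 mice, so they are not independent repeats of the fasting comparison. Frozen fed library B was the shallowest of all, at 13828945 counts, and the lowest of its group for Plin4, Plin5, Cideb, G0s2 and Pnpla2. Without it the frozen IP changes were 3.98 for Plin4 (edgeR adjusted p = 0.00323), 2.85 for Plin5 (adjusted p = 0.00101) and 0.81 for Pnpla2 (adjusted p = 0.0139). 1 frozen fed title carries a library number apart from all others, and no label says which column holds it.

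**Figure D1:**
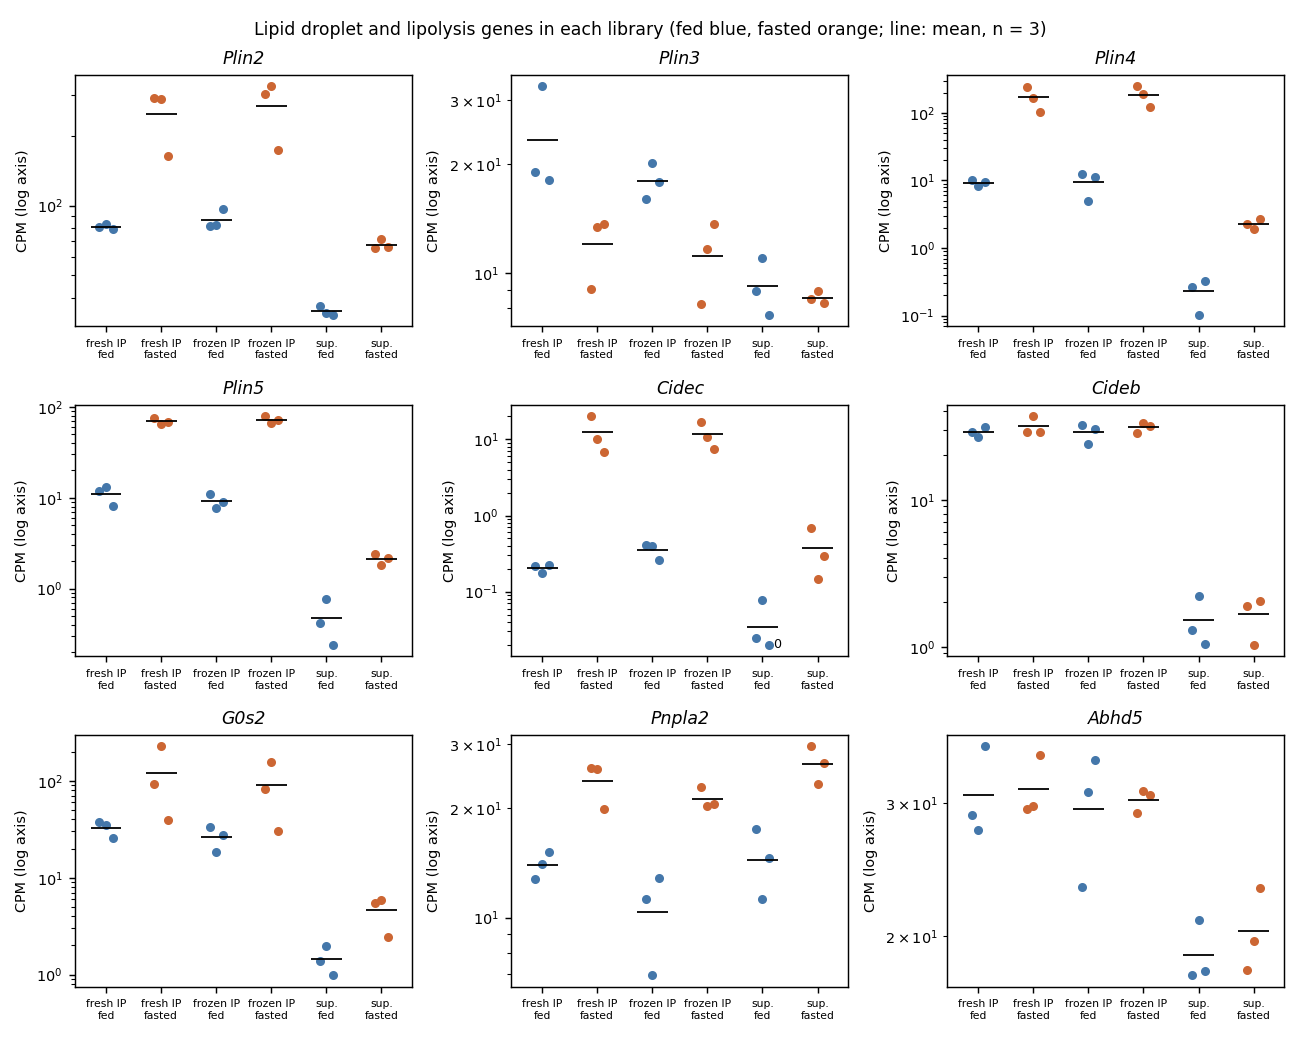
CPM of the 9 genes in each library on log axes, with fed libraries in blue, fasted libraries in orange, 3 points per group in the order of the library letters A, B and C, and a line at the mean (n = 3). In both kinds of IP the fed and fasted points of Plin2, Plin3, Plin4, Plin5, Cidec and Pnpla2 do not overlap, those of Cideb and Abhd5 do, and those of G0s2 overlap in frozen IP; the Cidec point marked 0 had no count.

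Plin2, the general perilipin of hepatocyte droplets, had the highest CPM of the 9 genes in every group. In fresh IP it was at 80.5, 83.2 and 79.5 CPM in the fed libraries A, B and C and at 292.0, 289.8 and 164.6 CPM in the fasted ones. Frozen IP gave 81.6, 82.1 and 97.2 CPM in fed and 305.7, 329.7 and 173.4 CPM in fasted libraries. The groups did not overlap in either preparation, and fasted library C was the lowest of its group in both. Letters mark libraries of 1 mouse, as judged from how libraries vary together. The log2 change was 1.64 ± 0.27 (SE; edgeR adjusted p = 0.0028) in fresh IP and 1.63 ± 0.30 (adjusted p = 0.00384) in frozen IP, about 3.11-fold and 3.10-fold. In supernatant Plin2 was at 36.9, 34.3 and 33.7 CPM in fed and 65.5, 72.0 and 66.1 CPM in fasted libraries. That change of 0.97 ± 0.06 (adjusted p = 0.00268) had the smallest SE of the members, and fasted library C was not the lowest there.

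Plin4, a perilipin best known from adipose tissue and muscle, was among the lower members in fed nuclei and near Plin2 per kilobase in fasted ones. Fresh IP of fed mice held 10.2, 8.36 and 9.34 CPM and that of fasted mice 244, 164 and 104.5 CPM. The frozen libraries were at 12.3, 4.89 and 11.2 CPM in fed and 250.2, 188 and 120.6 CPM in fasted mice. The lowest fasted library was thus above the highest fed library by a wide margin in both. Its log2 change was 4.22 ± 0.36 in fresh IP (18.6-fold, adjusted p = 0.000619) and 4.26 ± 0.52 in frozen IP (19.2-fold, adjusted p = 0.000854; edgeR). In supernatant it rose from 0.234 ± 0.117 to 2.28 ± 0.359 CPM (SD, n = 3), by 3.29 ± 0.42 (adjusted p = 0.0057), on 4 to 11 counts per fed library. There Plin4 passed the filter on low counts through the fasted libraries alone.

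Plin5, the perilipin of oxidative tissues that is known to link droplets to mitochondria, rose with little spread among fasted mice. In fresh IP it went from 12, 13.3 and 8.06 CPM in fed to 75.3, 65.7 and 68.5 CPM in fasted libraries. In frozen IP it went from 11.0, 7.65 and 9.09 CPM to 79.2, 65.9 and 71.6 CPM. Fed and fasted libraries did not overlap. The changes were 2.68 ± 0.23 (6.40-fold, edgeR adjusted p = 0.000531) and 2.96 ± 0.17 (7.76-fold, adjusted p = 0.000189). In supernatant the rise from 0.477 ± 0.272 to 2.14 ± 0.303 CPM (2.16 ± 0.45, adjusted p = 0.0201) lost its call without fed library A (2.05, adjusted p = 0.0583) or fasted library A (2.05, adjusted p = 0.0777). Plin5 had 8 to 30 counts per fed supernatant library, and passed the filter on low counts there through the fasted libraries alone.

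Plin3, a perilipin found on nascent droplets and in the cytosol of many cell types, was the member that fell. Fed fresh IP was at 19.0, 32.9 and 18.1 CPM and fasted fresh IP at 9.05, 13.4 and 13.6 CPM. Frozen IP gave 16.0, 20.1 and 17.9 CPM in fed and 8.19, 11.6 and 13.6 CPM in fasted libraries. The groups did not overlap, but fed library B stood above the others in fresh IP. Its log2 change was -0.93 ± 0.34 (edgeR adjusted p = 0.037) in fresh IP and -0.69 ± 0.24 (adjusted p = 0.0433) in frozen IP. These calls were close to the threshold. In fresh IP the call was lost without fed library B (-0.61, adjusted p = 0.0815) or any one of the fasted libraries A, B and C (-0.76, -1.01 and -1.03, adjusted p = 0.121, 0.0616 and 0.0625). In frozen IP it was lost without each library except fasted C (adjusted p = 0.0657, 0.0999 and 0.0863 without fed A, B and C, 0.119 and 0.0887 without fasted A and B) and with scaling by library size only (-0.67, adjusted p = 0.0557). In supernatant it was at 9.20 ± 1.67 CPM in fed and 8.56 ± 0.333 CPM in fasted mice (-0.09 ± 0.15, adjusted p = 0.756).

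**Figure D2:**
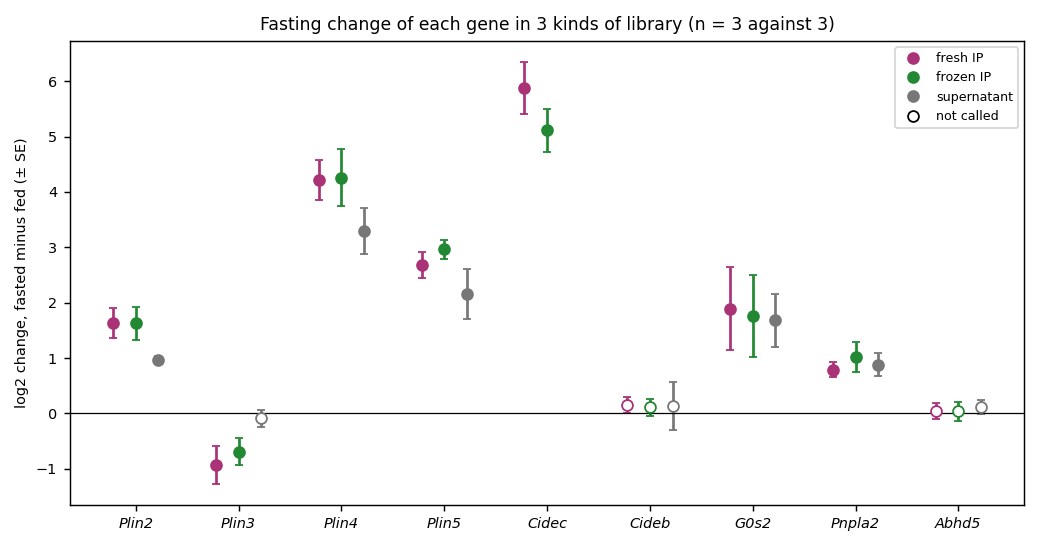
Log2 change of each gene, fasted minus fed, with its SE in fresh IP, frozen IP and supernatant (n = 3 against 3 libraries); open points did not pass the test. Cidec changed by 5.88 in fresh IP and was not tested in supernatant, Plin3 lies below 0 in both IP preparations, and Cideb and Abhd5 lie near 0 in all 3.

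Counts per kilobase of gene span adjust for the length of the span but not for its exon share, 14.0% for Plin2 and 62.5% for Plin4. The part of this in the levels of different genes was not tested. On that scale the make-up of the perilipin transcripts differed between fed and fasted mice. In fresh IP of fed mice Plin2 made up 55.4 ± 4.63% of perilipin counts per kb, Plin3 18.2 ± 4.52%, Plin5 17.0 ± 2.78% and Plin4 9.38 ± 1.66% (SD, n = 3). In fasted mice the shares were 36.8 ± 4.27% for Plin2, 36.3 ± 6.06% for Plin4, 24.6 ± 6.24% for Plin5 and 2.26 ± 0.995% for Plin3. The shares of Plin2 and Plin4 did not differ beyond their spread in fasted fresh IP, whereas in fed fresh IP Plin2 was above each of the other 3 in all libraries. Frozen IP gave 60.9 ± 3.41% Plin2 and 9.59 ± 3.67% Plin4 in fed mice and 37.1 ± 5.25% and 37.3 ± 4.73% in fasted mice. Supernatant stayed mostly Plin2, with 74.3 ± 3.83% in fed and 78.8 ± 1.5% in fasted mice, and Plin4 at 0.740 ± 0.400% and 3.89 ± 0.710%.

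**Figure D3:**
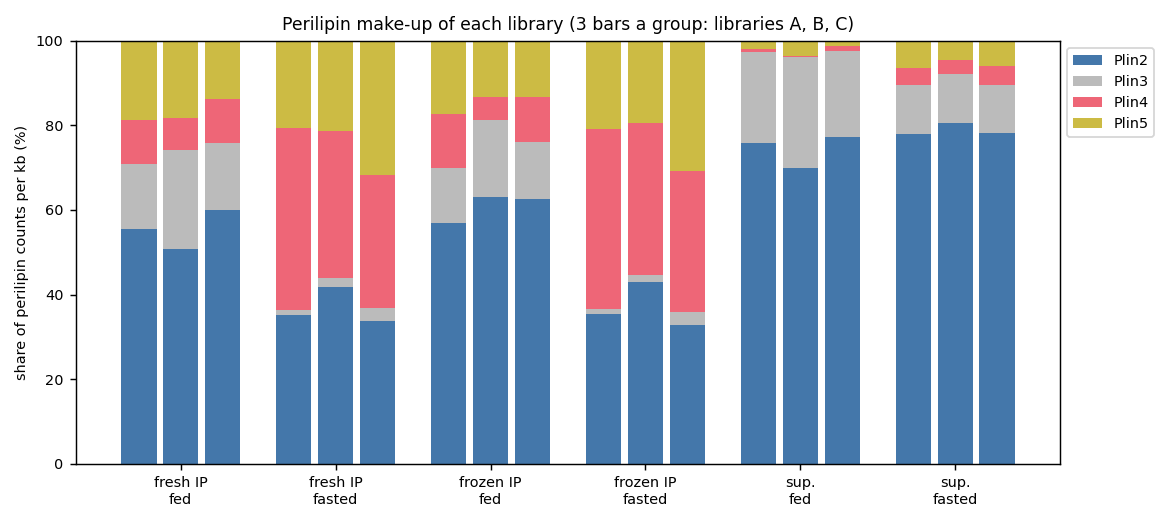
Share of Plin2, Plin3, Plin4 and Plin5 in the summed perilipin counts per kb of each library (%), 3 bars a group for libraries A, B and C. Plin4 takes 7.46 to 10.4% in fed and 31.3 to 43.1% in fasted fresh IP, while supernatant bars are mostly Plin2.

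The same comparison can be read as a ratio within a library, which does not depend on scaling between libraries. The level of such a ratio may still depend on gene structure. The log2 ratio of Plin4 to Plin2 per kb was -2.57 ± 0.17 in fed and -0.03 ± 0.29 in fasted fresh IP (SD, n = 3), and -2.75 ± 0.69 and 0.01 ± 0.26 in frozen IP. Plin5 over Plin2 was -1.71 ± 0.35 and -0.61 ± 0.46 in fresh and -2.06 ± 0.30 and -0.67 ± 0.53 in frozen IP. Fed and fasted libraries did not overlap in these 4 comparisons. Each gave p = 0.1 in a two-sided exact permutation test, the smallest that 3 against 3 allows, and 0.138 after Benjamini-Hochberg adjustment over the 18 ratios computed, so that the design cannot reach 0.05.

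Cidec, which encodes a droplet fusion protein that is low in lean liver, had the largest fasting change of the members. Fresh IP of fed mice held 10, 4 and 9 counts (0.215, 0.176 and 0.226 CPM), and that of fasted mice 20.2, 10.2 and 6.74 CPM. In frozen IP the fed libraries had 13, 5 and 12 counts (0.409, 0.394 and 0.259 CPM) and the fasted ones 17.0, 10.7 and 7.52 CPM. No fasted library came near the fed range. The log2 change was 5.88 ± 0.47 in fresh IP (59.0-fold, edgeR adjusted p = 0.000914) and 5.11 ± 0.38 in frozen IP (34.4-fold, adjusted p = 0.000555). In fresh IP Cidec passed the filter on low counts through the fasted libraries alone. The size of both changes rests on few fed counts. In supernatant Cidec had 1, 3 and 0 counts in fed and 31, 6 and 12 counts in fasted libraries, which was too low for the filter on low counts, so no test was made there. Plin1, the adipocyte perilipin gene, had 0 to 1 counts in fed and 3 to 20 in fasted fresh IP libraries (0.0218 ± 0.0220 and 0.274 ± 0.242 CPM), and 0 to 3 and 7 to 10 counts in frozen ones (0.0315 ± 0.0545 and 0.226 ± 0.0400 CPM). These groups did not overlap, and Plin1 was too low to be tested. Adipoq had at most 2 counts in any fasted IP library, and the adipocyte list summed to 7.12 to 9.54 CPM in fasted against 7.61 to 10.5 CPM in fed fresh IP. In supernatant the list was higher in fasted mice without overlap, at 2.72 to 8.47 CPM against 1.74 to 2.14 CPM in fed mice. The part of adipocyte RNA in the Cidec, Plin1 and Plin4 values was not tested.

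Cideb, the CIDE gene of hepatocytes known for its role in lipoprotein lipidation, was at like levels in fed and fasted nuclei. It was at 28.7, 26.6 and 31.1 CPM in fed and 28.9, 37.0 and 28.8 CPM in fasted fresh IP, and the groups overlapped. The change was 0.15 ± 0.14 (adjusted p = 0.453) in fresh IP, 0.11 ± 0.15 (adjusted p = 0.623) in frozen IP and 0.13 ± 0.43 (adjusted p = 0.866, edgeR) in supernatant. A p above the threshold does not show that it did not change. The ratio of Cidec to Cideb per kb was -8.38 ± 0.04 in fed and -2.84 ± 0.85 in fasted fresh IP on the log2 scale and -7.63 ± 0.51 and -2.84 ± 0.68 in frozen IP, without overlap (exact permutation p = 0.1 in each, the smallest possible). Nop9, on the opposite strand, overlaps 1580 bases or 36.2% of Cideb, and whether the counting used strand is not given in the sources used here. Nop9 itself was at 9.77 ± 0.190 CPM in fed and 12.5 ± 1.08 CPM in fasted fresh IP (0.38 ± 0.07, adjusted p = 0.0657).

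Pnpla2, the lipase gene, rose in all 3 preparations. Fresh IP was at 12.8, 14.0 and 15.1 CPM in fed and 25.8, 25.7 and 19.9 CPM in fasted libraries. Frozen IP was at 11.3, 6.94 and 12.8 CPM in fed and 22.8, 20.3 and 20.5 CPM in fasted libraries, and supernatant at 17.5, 11.2 and 14.5 CPM and 29.6, 23.2 and 26.6 CPM. No fasted library fell within the fed range of its preparation. The changes were 0.79 ± 0.14 (1.72-fold, edgeR adjusted p = 0.00961), 1.02 ± 0.27 (2.02-fold, adjusted p = 0.015) and 0.88 ± 0.21 (1.85-fold, adjusted p = 0.0305). The frozen IP call was lost without fasted library A (0.96, adjusted p = 0.059). That in supernatant was lost without fed B, fed C, fasted A or fasted C (0.72, 0.90, 0.79 and 0.89, with adjusted p = 0.0564, 0.0897, 0.111 and 0.0679).

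Abhd5, the coactivator gene, was nearly level. Fresh IP held 28.9, 27.6 and 35.7 CPM in fed and 29.4, 29.7 and 34.7 CPM in fasted libraries, which overlapped. Its change was 0.04 ± 0.14 (adjusted p = 0.853) in fresh IP, 0.04 ± 0.17 (adjusted p = 0.878) in frozen IP and 0.11 ± 0.13 (adjusted p = 0.646, edgeR) in supernatant. Its ratio to its lipase was lower in fasted libraries. The log2 ratio of Abhd5 to Pnpla2 per kb was -1.30 ± 0.14 in fed and -2.03 ± 0.35 in fasted fresh IP, -0.89 ± 0.57 and -1.91 ± 0.14 in frozen IP, and -2.02 ± 0.45 and -2.81 ± 0.29 in supernatant (SD, n = 3). Fed and fasted libraries did not overlap in any of the 3, each at the smallest exact permutation p of 0.1 (0.138 adjusted over the 18 ratios).

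G0s2, the lipase inhibitor gene, rose on average, with the largest SD relative to its mean of the members in fasted IP of both kinds. Fresh IP of fed mice held 37.2, 35.1 and 25.9 CPM and that of fasted mice 92.4, 226 and 39.2 CPM. In frozen IP the values were 33.4, 18.2 and 27.7 CPM in fed and 82.4, 157 and 30.2 CPM in fasted libraries, and in supernatant 1.39, 1.96 and 0.989 CPM and 5.51, 5.88 and 2.45 CPM. Fasted library B was the highest and C the lowest in each preparation, and in frozen IP fasted C lay within the fed range. The changes were 1.89 ± 0.75 (3.70-fold, edgeR adjusted p = 0.0393) in fresh IP, 1.76 ± 0.74 (3.38-fold, adjusted p = 0.0433) in frozen IP and 1.68 ± 0.48 (3.20-fold, adjusted p = 0.0468) in supernatant.

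These 3 calls of G0s2 were lost in most fits that left out 1 library. In fresh IP this was so without each of fed A, B and C (1.98, 1.94 and 1.74, adjusted p = 0.0918, 0.102 and 0.0955), fasted A (2.04, adjusted p = 0.0789) and fasted B (1.03, adjusted p = 0.0688). In frozen IP the call ended without fed A, B or C (1.96, 1.56 and 1.78, adjusted p = 0.0726, 0.127 and 0.0934), fasted A (1.82, adjusted p = 0.0978) or fasted B (1.08, adjusted p = 0.121). In supernatant it ended without fed A, B or C (1.64, 1.95 and 1.49, adjusted p = 0.105, 0.0792 and 0.13), fasted A (1.53, adjusted p = 0.147) or fasted B (1.47, adjusted p = 0.109), and in 1 fit of all 6 groups (1.67, adjusted p = 0.188). Only without fasted C did it hold in each preparation (2.30, 2.16 and 1.98).

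**Figure D4:**
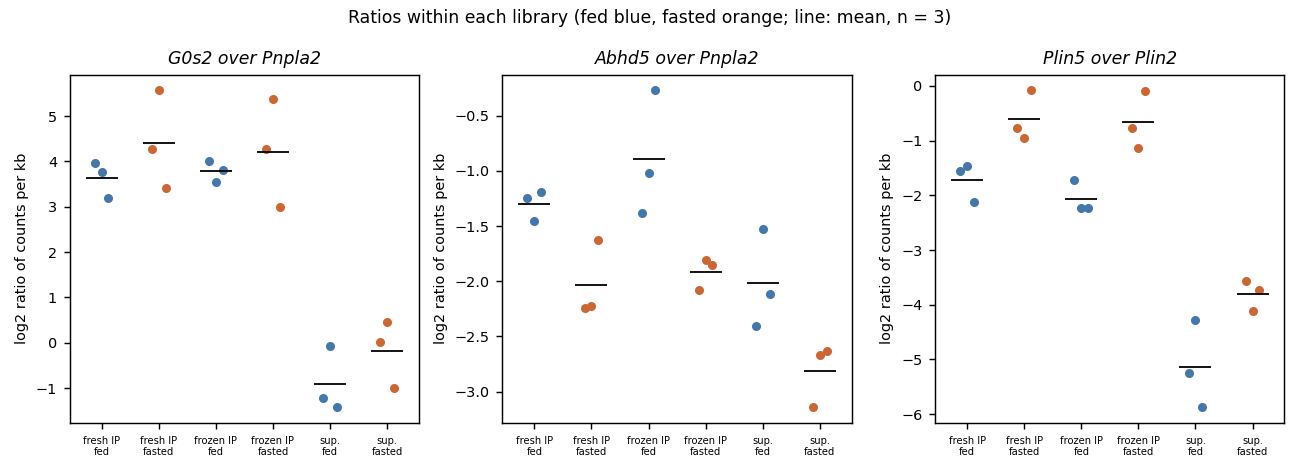
Log2 ratio of counts per kb within each library for G0s2 over Pnpla2, Abhd5 over Pnpla2 and Plin5 over Plin2, with fed libraries in blue, fasted in orange and a line at the mean (n = 3). Fed and fasted points overlap for G0s2 over Pnpla2 in all 3 preparations and are apart for the other 2 ratios.

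The inhibitor and its lipase did not separate as a ratio. G0s2 over Pnpla2 per kb was 3.64 ± 0.40 in fed and 4.42 ± 1.09 in fasted fresh IP on the log2 scale, 3.79 ± 0.23 and 4.22 ± 1.20 in frozen IP, and -0.90 ± 0.72 and -0.18 ± 0.74 in supernatant (SD, n = 3). Fasted B reached 5.57 and fasted C 3.41 in fresh IP, on either side of the fed mean. The differences of 0.77 ± 0.67, 0.43 ± 0.70 and 0.73 ± 0.60 (SE) had exact permutation p of 0.4, 0.7 and 0.2, and 0.424, 0.7 and 0.24 after adjustment over the 18 ratios. In IP nuclei G0s2 was thus far above its lipase per kb in either state, and in supernatant its mean was below it. Exons made up 82.4% of the G0s2 span and 36.8% of the Pnpla2 span, and the part of this in the levels was not tested. G0s2 over Abhd5 was 4.94 ± 0.47 in fed and 6.45 ± 1.38 in fasted fresh IP, 4.68 ± 0.65 and 6.13 ± 1.20 in frozen IP, and 1.12 ± 0.38 and 2.63 ± 0.87 in supernatant, with overlap in both kinds of IP (exact permutation p = 0.3, 0.2 and 0.1, adjusted 0.337, 0.24 and 0.138).

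Ranked by CPM per kb of gene span, the fed fresh IP order was G0s2 (31.8 ± 5.86), Cideb (6.59 ± 0.515), Plin2 (6.01 ± 0.142), Pnpla2 (2.52 ± 0.213), Plin3 (2.02 ± 0.720), Plin5 (1.87 ± 0.458), Abhd5 (1.03 ± 0.144), Plin4 (1.01 ± 0.102) and Cidec (0.0185 ± 0.00236). The ranges overlapped for Cideb and Plin2, Pnpla2 and Plin3, Plin3 and Plin5, and Abhd5 and Plin4, whereas Pnpla2 was above Plin5 in each library. In fasted fresh IP the order was G0s2 (116 ± 93.8), Plin4 (18.6 ± 7.62), Plin2 (18.4 ± 5.41), Plin5 (11.7 ± 0.829), Cideb (7.23 ± 1.08), Pnpla2 (4.28 ± 0.609), Cidec (1.11 ± 0.628), Abhd5 (1.05 ± 0.0996) and Plin3 (1.04 ± 0.224). The ranges of Plin4, Plin2 and Plin5 overlapped, as did those of the last 3. Introns are included in the span, whose exon share ran from 10.6% for Abhd5 to 82.4% for G0s2. The counts can mix spliced and unspliced RNA. The order may thus depend on gene structure too, and it is not one of mature mRNA.

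The comparison of IP with supernatant shows which member transcripts the hepatocyte nuclei held in excess of the remaining nuclei. In fed mice 7 of 8 members tested were higher in IP and 0 lower, where 76.4% of 13881 genes were called in either direction, 37.7% were higher and 38.7% lower. In fasted mice 7 of 9 were higher and 0 lower, against 80.5% of 14000 genes called, 40.1% higher and 40.4% lower. Plin4 (5.30 ± 0.40 in fed, 6.18 ± 0.38 in fasted mice), Plin5 (4.50 ± 0.49 and 4.96 ± 0.13), G0s2 (4.47 ± 0.32 and 4.65 ± 0.83) and Cideb (4.22 ± 0.32 and 4.19 ± 0.33) were far higher in IP on the log2 scale, as was Cidec in fasted mice (4.95 ± 0.71), at edgeR adjusted p from 1.94e-07 to 0.000666. Plin4 and Plin5 in fed mice and Cidec in fasted mice passed the filter on low counts through the IP libraries alone. Their supernatant libraries held 4 to 11, 8 to 30 and 6 to 31 counts, so these tests are a description only. Plin2 was higher by 1.20 ± 0.04 and 1.82 ± 0.28 (adjusted p = 8.49e-06 and 0.000236). Plin3 was higher by 1.32 ± 0.31 in fed mice (adjusted p = 0.0015) and differed by 0.43 ± 0.20 in fasted mice (adjusted p = 0.0536), a difference that passed without fasted IP library A (0.61, adjusted p = 0.00359).

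Pnpla2 was the member spread most evenly over both fractions. Pnpla2 differed by -0.06 ± 0.20 in fed (adjusted p = 0.779) and -0.21 ± 0.16 in fasted mice (adjusted p = 0.24), and it was lower in fasted IP with upper quartile scaling (-0.37, adjusted p = 0.0482) or library size only (-0.54, adjusted p = 0.0109). Abhd5 was 0.69 ± 0.14 (adjusted p = 0.00242) and 0.56 ± 0.13 (adjusted p = 0.0027) higher in IP, calls that were lost with library size only (0.33 and 0.23, adjusted p = 0.0878 and 0.117; edgeR). Those scalings move the median of all genes by -0.24 and -0.37 in fed and by -0.16 and -0.33 in fasted mice.

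Given as a share, the supernatant mean was 2.51% of the fresh IP mean for Plin4 in fed and 1.33% in fasted mice, 4.29% and 3.06% for Plin5, 4.42% and 3.87% for G0s2, and 5.28% and 5.26% for Cideb. The 10 hepatocyte markers were at 2.28 to 13.6% (median 3.52%) in fed and 2.39 to 26.7% (median 4.51%) in fasted mice. These 4 members lay within that range, except Plin4 in fasted mice, which lay below it. Plin2 was at 43.2% and 27.3%, Plin3 at 39.5% and 71.1%, Abhd5 at 61.6% and 64.9% and Pnpla2 at 103% and 111%, all above the range. No test was made of these shares, and a share for Cidec in fed mice would rest on 0 to 3 counts per supernatant library.

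**Figure D5:**
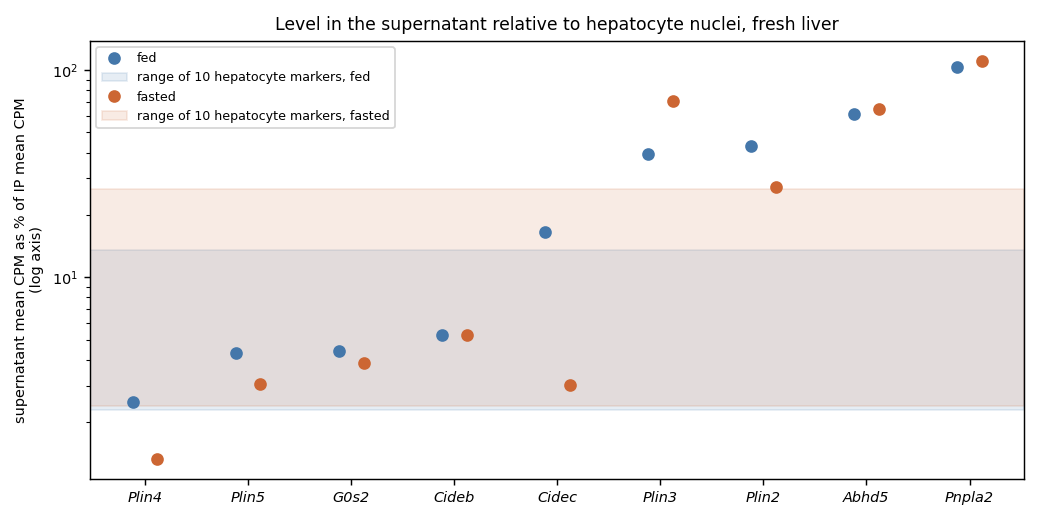
Mean CPM in supernatant as a percentage of mean CPM in fresh IP (log axis) for each gene in fed (blue) and fasted (orange) mice, with bands for the range of 10 hepatocyte markers in each state. Plin4, Plin5, G0s2 and Cideb sit at 1.33 to 5.28%, and Plin2, Plin3, Abhd5 and Pnpla2 lie above both bands; the fed Cidec point rests on 0 to 3 supernatant counts per library.

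Whether the fasting change differed between hepatocyte nuclei and supernatant was tested as an interaction, which shares the libraries of the comparisons above. No member was called (0 of 9 by edgeR, 2 at an unadjusted p under 0.05, and 0 by DESeq2), where 9.54% of 14322 genes were (3.71% higher and 5.83% lower in the IP response), with a median of -0.08 over all genes. The difference, IP minus supernatant, was 0.62 ± 0.28 for Plin2 (adjusted p = 0.161), and it passed without fasted IP library C (0.87, adjusted p = 0.00273). For Plin3 it was -0.89 ± 0.37 (adjusted p = 0.114), and with the mouse as a block that difference passed (-0.88, adjusted p = 0.0439). The block called 1 of 9 members, near the 10.2% of all genes that it called (3.87% higher, 6.35% lower in the IP response). Leaving out 1 library moved the Plin3 difference between -1.04 and -0.57 without the block. The differences were 0.87 ± 0.55 for Plin4, 0.47 ± 0.50 for Plin5 and 2.50 ± 0.81 for Cidec, whose value rests on 0 to 3 counts in fed supernatant, with adjusted p = 0.381, 0.485 and 0.369. Leaving out 1 library moved these between 0.53 and 1.22, -0.07 and 0.75, and 1.28 and 3.31. G0s2 (0.18 ± 0.89), Cideb (-0.03 ± 0.46), Abhd5 (-0.13 ± 0.19) and Pnpla2 (-0.15 ± 0.25) had adjusted p of 0.707 to 0.970. In supernatant the hepatocyte markers summed to 547 to 987 CPM in fed and 892 to 1475 CPM in fasted mice, and the Kupffer cell and macrophage markers to 5585 to 8064 and 3946 to 5457 CPM, and the part of these shifts in the supernatant values was not tested.

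No member passed the test between frozen and fresh liver when libraries were taken as independent. In fed mice the difference of frozen minus fresh IP ran from -0.37 ± 0.28 (Pnpla2) to 0.15 ± 0.08 (Plin2) over the 8 members tested, and in fasted mice from -0.40 ± 1.01 (G0s2) to 0.14 ± 0.47 (Plin4) over 9. No member was called in either state by edgeR or DESeq2, and 0 had an unadjusted p under 0.05. Of all genes edgeR called 0 of 12689 in fed mice, which is 0% (909 at an unadjusted p under 0.05, and 430 by DESeq2), and 63 of 12720, or 0.495%, in fasted mice (0.480% higher and 0.0157% lower in frozen IP). With the mouse as a block, 3 of 9 members passed in fasted mice, 2 higher and 1 lower in frozen IP, where 2939 of 12720 genes or 23.1% did (11.0% higher, 12.1% lower). G0s2 was lower in frozen than in fresh IP of each fasted mouse (82.4 against 92.4, 157 against 226 and 30.2 against 39.2 CPM; -0.35, edgeR adjusted p = 9.89e-09). With 3 pairs of libraries, edgeR estimates the spread in part from other genes. That p is therefore not a measure of the spread of G0s2 among these mice alone. Plin2 and Plin4 were higher in frozen IP of each fasted mouse, by 0.13 (adjusted p = 0.0133) and 0.16 (adjusted p = 0.00221). In fasted mice, markers of other cells were higher in frozen than in fresh IP without overlap, for Kupffer cells and macrophages (34.9 to 42.0 against 12.6 to 14.5 CPM), endothelial cells (107 to 163 against 33.0 to 76.2 CPM) and lymphocytes (15.4 to 24.9 against 7.47 to 14.5 CPM). Stellate cell markers overlapped (47.5 to 59.9 against 46.3 to 60.3 CPM). The lists that were higher in frozen IP of fasted mice were so without overlap in fed mice too, with Kupffer cell and macrophage markers at 33.6 to 112 against 9.94 to 19.4 CPM. The part of such markers in the differences of the members was not tested.

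The fasting response did not differ detectably between frozen and fresh IP for any member. The differences ran from -0.78 ± 0.61 for Cidec to 0.27 ± 0.28 for Plin5, all at an edgeR adjusted p of 1, and 0 of 13162 genes passed (0%; 43 at an unadjusted p under 0.05, and 0 by DESeq2). In the authors' deposited table the fasting log2 fold changes in fresh and frozen IP were 1.57 and 1.56 for Plin2, -1.0 and -0.76 for Plin3, 4.15 and 4.22 for Plin4, 2.61 and 2.89 for Plin5, and 5.84 and 5.03 for Cidec. For G0s2 the authors' deposited table gave 1.82 (adjusted p = 0.00553) and 1.70 (adjusted p = 0.0103), for Pnpla2 0.72 and 0.95, for Cideb 0.08 and 0.04, and for Abhd5 -0.03 and -0.03.

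Other genes of the droplet surface moved in both directions in hepatocyte nuclei. Of 19 tested genes of a wider lipid droplet list 4 were higher and 3 lower in fresh IP (12.4% and 12.6% of all genes), the same counts as in frozen IP (11.0% and 11.6%), and 2 higher and 0 lower in supernatant (3.38% and 2.84%). Their median change in fresh IP was 0.06 against 0.01 over all genes. Hilpda, which encodes an inhibitor of adipose triglyceride lipase besides G0s2, rose by 2.02 ± 0.50 (adjusted p = 0.0155) in fresh IP, 2.37 ± 0.41 (adjusted p = 0.00617) in frozen IP and 2.21 ± 0.50 (adjusted p = 0.0217) in supernatant. Fitm2, needed for droplet budding from the endoplasmic reticulum, rose by 1.65 ± 0.24 and 1.64 ± 0.37 in fresh and frozen IP (adjusted p = 0.00232 and 0.00741). The droplet-bound dehydrogenase gene Hsd17b11 rose by 1.33 ± 0.21 and 1.35 ± 0.26, and its relative Hsd17b13 by 0.68 ± 0.17 in fresh IP and 1.25 ± 0.35 in supernatant (adjusted p = 0.0172 and 0.046). Acsl3, the acyl-CoA synthetase of nascent droplets, fell by 1.62 and 1.63 on the log2 scale in fresh and frozen IP (SE 0.26 and 0.29), and Mettl7a1 by 1.04 and 0.93 (SE 0.10 and 0.17).

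In a wider lipolysis list more genes were lower than higher in fasted IP nuclei. Besides hydrolases the list holds Sirt1, Prkaca, Atg5 and Lamp2, and Atg5, an autophagy gene, is among those lower in fresh IP. Of its 22 tested genes 2 were higher and 11 lower in fresh IP (12.4% and 12.6% of all genes), 2 and 9 in frozen IP (11.0% and 11.6%), and 0 and 1 in supernatant (3.38% and 2.84%). The median change in fresh IP was -0.39 against 0.01 over all genes. Pnpla3, a lipase relative induced by feeding and counted in both lists, changed by -6.94 ± 1.03 in fresh IP (edgeR adjusted p = 0.00272). There it was at 148 ± 137 CPM in fed mice, with a range of 29.6 to 298 CPM, and at 1.19 ± 0.592 CPM in fasted mice (SD, n = 3). In supernatant Pnpla3 changed by -0.03 ± 0.28 (adjusted p = 0.947), and that difference between fractions passed its test (-6.96 ± 1.07, adjusted p = 0.00188). The carboxylesterase genes Ces1d, Ces1f, Ces1g, Ces2a, Ces3a and Ces3b changed by -1.33 ± 0.24, -1.48 ± 0.28, -2.24 ± 0.32, -2.27 ± 0.58, -1.56 ± 0.24 and -2.41 ± 0.74 in fresh IP (edgeR adjusted p of 0.00155 to 0.0222), and they are close paralogs whose reads the authors' counting could split. Hepatic lipase (Lipc) changed by -1.36 ± 0.22 (adjusted p = 0.0032). Ddhd2, a triglyceride and phospholipid hydrolase, rose by 1.42 ± 0.30 and Abhd6, a monoacylglycerol lipase, by 1.09 ± 0.28 (adjusted p = 0.00543 and 0.0114).

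Of 16 genes of a list of transcriptional regulators 3 were higher and 3 lower in fresh IP (12.4% and 12.6% of all genes), with the same counts in frozen IP (11.0% and 11.6%), and 2 higher and 2 lower in supernatant (3.38% and 2.84%). Their median change in fresh IP was 0.16 against 0.01 over all genes. In fresh IP the coactivator gene Ppargc1a rose by 1.95 ± 0.28, Foxo1, a factor restrained by insulin, by 1.41 ± 0.30, and Creb3l3, a fasting-activated factor of the endoplasmic reticulum, by 1.19 ± 0.18 (edgeR adjusted p = 0.00168, 0.0079 and 0.00291). Srebf1 and Mlxipl, which encode the lipogenic factors SREBP1 and ChREBP, changed by -3.31 ± 0.37 and -1.48 ± 0.08 (adjusted p = 0.00099 and 0.000963). Ppara, whose product is the fatty acid receptor of hepatocytes, changed by 0.31 ± 0.23 (adjusted p = 0.288).

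The fasting changes of genes next to the members are described here, and a link between neighbours was not tested. Of all genes 12.4% were called higher in fresh IP, 11.0% in frozen IP and 3.38% in supernatant. Near Plin4 and Plin5, which lie 1798 bases apart and rose by 4.22 and 2.68, Hdgfrp2 overlaps Plin4 by 14 bases on the opposite strand and changed by 0.02 ± 0.15 in fresh IP (adjusted p = 0.927), and Lrg1, 2129 bases from Plin5 on its strand, by 0.77 ± 0.42 (adjusted p = 0.127). Sema6b, 5536 bases from Plin5, rose in supernatant (0.84 ± 0.18, adjusted p = 0.0253) and was at 0.69 ± 0.56 in fresh IP, and the difference between these responses did not pass (-0.11 ± 0.58, adjusted p = 0.915). Jagn1, 6756 bases from Cidec, rose by 0.77 ± 0.08 in fresh IP (adjusted p = 0.00794) and Rpusd3, on its other side, changed by -0.04 ± 0.17 (adjusted p = 0.896). Rplp2, 3845 bases from Pnpla2, rose by 0.86 ± 0.17 (adjusted p = 0.0131), while Cracr2b, 350 bases from it, was at 0.91 ± 0.21 (adjusted p = 0.101) and Cd151 at -0.08 ± 0.33. Hsd11b1, 8114 bases from G0s2, was at -0.45 ± 0.27 (adjusted p = 0.142). Near Cideb, Dhrs1, Ltb4r1 and Ltb4r2 were at 0.01 ± 0.12, 0.31 ± 0.25 and -0.10 ± 0.43, and near Plin3, Ticam1 was at 0.43 ± 0.14 in fresh IP (adjusted p = 0.0518) and rose by 0.47 ± 0.11 in frozen IP (adjusted p = 0.0401). Arrdc5, 3599 bases from Plin3, had 0 counts in every library. No gene of the table lies within 10 kb of Plin2 or Abhd5.

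Genes whose pattern over the 6 group means was most like a member's were found among 14445 genes, as those with the smallest root mean square difference of log2 CPM after each gene was centred on its own mean. For Plin4 they were the fatty acid hydroxylase genes Cyp4a14 (0.498), Cyp4a31 (0.501) and Cyp4a10 (0.536), which are close paralogs. For Plin5 they were Sdsl (0.248), Igfbp1 (0.306) and Cyp4a31 (0.344), and for Cidec Ttll8 (0.353), the hormone gene Fgf21 (0.477) and the lipoprotein lipase inhibitor gene Angptl4 (0.650). Plin2 was nearest to Ldha (0.137), Myrfl (0.150) and Fam71d (0.187), and G0s2 to Nrg4 (0.194), Il22ra1 (0.232) and Serinc2 (0.234). Pnpla2 was nearest to Mettl7a3 (0.0747), Cebpb (0.145) and Rabac1 (0.157), and Plin3 to Gcc1 (0.0518), Fam84b (0.0522) and Cnot8 (0.0666). Cideb (Chsy3, Fat1, Zc2hc1c) and Abhd5 (Stx5a, Mynn, Wdr92), whose fasting change did not pass the test, had distances of 0.0358 to 0.0738 and 0.00953 to 0.0241. Distances are larger for members with larger changes, and they describe 6 means of 18 libraries from 6 mice.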

How the data were processed

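Nuclear RNA was sequenced from 18 libraries of 6 mice. Per the labels' protocols, libraries were made with a stranded kit, without selecting poly-adenylated RNA. STAR 2.4.2a, DESeq2 1.24.0 and mm10 are named in the submitters' processing notes. The counting tool and its strand setting are not given in the sources used here. The authors deposited raw counts per gene for 20105 genes, and a table with log2 fold changes, adjusted p-values and normalized counts (signal, counts over 1 factor per library), which was used only where named. In the count table, 6 columns that match no sample were used in no step. The labels hold no library letters, so each column was matched to its group alone.

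The 9 comparisons used edgeR 4.0.16 in R 4.3.3 (glmQLFit, glmQLFTest, TMM, filterByExpr, Benjamini-Hochberg adjusted p under 0.05), using its own groups. Log2 differences are edgeR's, with the SE of the difference of mean log2 CPM (prior count 2), libraries taken as independent. CPM are mean ± SD. Ratios were tested by exact permutation with a pseudocount of 0.5 counts. Alternatives were DESeq2 1.42.0, RLE, upper quartile or library size scaling, no filter, all 6 groups in 1 fit, the mouse as a block, and leaving out each library. Scripts were tested on simulated data.

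Same-letter libraries deviated together (correlation 0.555 to 0.902 between fresh and frozen IP, 0.152 to 0.437 between IP and supernatant) and others did not (-0.586 to 0.010), so letters served as the mouse block.

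The 9 genes, the lists and the cell type markers were chosen with earlier results of these data known. Named were all members, list genes past the test with a log2 change of at least 1 in 1 fasting comparison, neighbours within 10 kb and the 3 genes most like each member. Ppara, on the regulator list, was named outside this rule.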

Additional observations from a re-analysis of the deposited data

Results flagged for a closer look

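The fasting response of Plin3 in hepatocyte nuclei and in supernatant passed the test of a difference only with the mouse as a block. The interaction was -0.88 on the log2 scale (edgeR adjusted p = 0.0439), against -0.89 ± 0.37 (adjusted p = 0.114) without the block, where leaving out 1 library moved it between -1.04 and -0.57. The block called 10.2% of all genes and 1 of 9 members, so a single member is near the background. Plin3 fell from 23.3 ± 8.32 to 12 ± 2.59 CPM in fresh IP and was at 9.20 ± 1.67 and 8.56 ± 0.333 CPM in supernatant (SD, n = 3).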

How the results depend on the processing

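Changed counts and signs are given here, and the cause was not tested. DESeq2 called 1881 genes for fasting in supernatant (866 by edgeR), 430 for frozen minus fresh IP in fed mice (0) and 359 in fasted mice (63), and 2340 for the fasting response of IP minus supernatant (1367). In 1 fit of all 6 groups, frozen minus fresh IP gave 479 genes in fed and 295 in fasted mice.

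The letters pair the libraries of 1 mouse, and the replicate block by mouse called 181 genes for frozen minus fresh IP in fed mice and 2939 (23.1%) in fasted mice, 3 of them members. For the response of IP minus supernatant it called 1464 genes (10.2%) and 1 of 9 members, Plin3. It gave a G0s2 difference of -0.10 for that response, and changed no other member's call. Fasting contrasts compare different mice, so no block applies to them.

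Leaving out 1 library gave 1429 to 2643 genes for fasting in fresh IP (3145 with all), 1168 to 2271 in frozen IP (2918, with 4 to 7 members) and 197 to 624 in supernatant (866, with 2 to 4 members). It gave 0 to 58 genes for frozen minus fresh IP in fed mice and 0 to 1 in fasted mice, and 771 to 1485 genes with 0 to 1 members for the response of IP minus supernatant.

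Signs changed only in results that were not called without the block. Among them are the differences of G0s2, Plin2 and Plin4 for frozen minus fresh IP in fasted mice, which passed with the block. Under upper quartile scaling Abhd5 was at 0.01 for frozen minus fresh IP in fed and 0.01 in fasted mice, Cideb at 0.03 in fasted mice and at 0.04 for the response of IP minus supernatant. With library size only Cideb was at 0.01 for frozen minus fresh IP in fasted mice. For the response of frozen minus fresh IP, Abhd5 was at 0.00 with library size only, 0.02 in 1 fit of all groups and 0.02 with the block, and Plin2 at 0.02 in 1 fit of all groups.

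Leaving out 1 library moved Abhd5 between -0.04 and 0.17 for fasting in fresh IP and -0.11 and 0.15 in frozen IP, and Cideb between 0 and 0.20 in frozen IP and -0.06 and 0.50 in supernatant. Plin3 in supernatant ran from -0.20 to 0.04, Pnpla2 for IP minus supernatant in fed mice from -0.21 to 0.10, and the ratio of G0s2 to Pnpla2 in frozen IP from -0.15 to 1.05. For the response of IP minus supernatant, Abhd5 ran from -0.22 to 0.02, Cideb from -0.41 to 0.18, G0s2 from -0.72 to 0.61 and Plin5 from -0.07 to 0.75. For that of frozen minus fresh IP, Abhd5 ran from -0.15 to 0.08, Cideb from -0.16 to 0.08, G0s2 from -0.81 to 0.72, Plin2 from -0.24 to 0.23, Plin3 from -0.09 to 0.42 and Plin4 from -0.24 to 0.40. For frozen minus fresh IP in fasted mice, Abhd5 ran from -0.07 to 0.05, Cideb from -0.07 to 0.13, Cidec from -0.43 to 0.48, G0s2 from -1.08 to 0.46, Plin2 from -0.10 to 0.37, Plin3 from -0.27 to 0.08, Plin4 from -0.14 to 0.48 and Plin5 from -0.01 to 0.12. In fed mice, Abhd5 ran from -0.14 to 0.13, Cideb from -0.04 to 0.15, Plin3 from -0.48 to 0 and Plin4 from -0.14 to 0.37.

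The fasting calls of Plin2 and Plin4 in all 3 preparations, Cidec and Plin5 in both kinds of IP and Pnpla2 in fresh IP held under every alternative run. Cidec had 0 to 3 counts in fed supernatant libraries, too few for a test of fasting there.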
